A study of Homo sapiens with 12 samples.

Results

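The 9 genes described here encode transcription factors that direct the earliest lineages of the embryo outside and beside the epiblast: GATA2, GATA3, GATA4, GATA6, EOMES, CDX2, FOXA1, FOXA2 and HHEX. Their binding by SOX17 and by SOX2 was read from 2 lists of ChIP-seq peaks, and a peak was taken as a member where the authors' annotation gave 1 of the 9 as its nearest gene. By this rule 13 of 17507 SOX17 peaks and 8 of 17795 SOX2 peaks were members, 21 in all. SOX17 was precipitated with an anti-SOX17 antibody from TCam-2, a seminoma-like germ cell tumour line, in 3 biological replicates. SOX2 was precipitated with an anti-SOX2 antibody from 2102EP, an embryonal carcinoma-like line, also in 3 biological replicates. A 2% input of TCam-2 and a 2% input of 2102EP, each in 3 libraries, brought the total to 12 libraries in 4 groups. The labels name no drug treatment and no engineered allele in any group. Each immunoprecipitation used 200 µg of chromatin and 5 µg of antibody, after fixation with a protein crosslinker and formaldehyde and an enzymatic digestion.

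Each factor was measured in 1 line only, so a difference by antibody and a difference by line cannot be told apart. The deposited lists were merged, with 1 score per peak and no value for a single library, so sequencing depth is unknown and no value below has a replicate error. Expression was not measured here, so the labelled cell types could not be checked against their markers. A peak missing from a list was not shown to be unbound. The score is the authors' own, its scale is not stated in the sources used, and it was used only to rank peaks within a list. Ranks are given as percentiles of the peak's own list, where a higher percentile is a higher score.

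In early mammalian development, trophectoderm, the precursor of the placenta, is set apart from the inner cell mass by factors that include CDX2, EOMES, GATA2 and GATA3. The inner cell mass later gives rise to primitive endoderm, which depends on GATA6 and GATA4, and definitive endoderm forms at gastrulation under EOMES, GATA6, FOXA2 and SOX17 itself. SOX2 holds embryonic stem cells and embryonal carcinoma cells in the pluripotent state together with OCT4, and SOX17 takes a role in human primordial germ cells and seminoma, where OCT4 is also present. The SOX proteins bind a short site in the minor groove of DNA. With OCT4 they can bind a composite site in which a SOX site precedes an OCT site, with 1 base between them in the canonical form that SOX2 prefers and 0 bases in the compressed form that SOX17 prefers.

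The peak regions on which the results turn are printed from the plus strand of hg38, from 100 bp before to 100 bp after the peak centre. Capitals mark SOX sites (CATTGT or CTTTGT) and OCT sites (ATGCAAAT or ATGCTAAT) on either strand, and whole SOX-OCT composites. The first 3 are regions named for a member in both lists, printed around the SOX17 peak centre. The next 3 are the highest SOX2 peak named for a member, the peak with the canonical composite, and the promoter peak of SOX17. The last 2 lie at the promoters beside FOXA1 and FOXA2 but were named for other genes.
EOMES upstream region, chr3:27728618-27728818: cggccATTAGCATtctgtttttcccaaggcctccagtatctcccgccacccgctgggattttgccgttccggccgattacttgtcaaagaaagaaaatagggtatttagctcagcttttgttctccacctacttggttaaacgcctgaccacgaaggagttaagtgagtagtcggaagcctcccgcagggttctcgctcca
CDX2 upstream region, chr13:27971286-27971486: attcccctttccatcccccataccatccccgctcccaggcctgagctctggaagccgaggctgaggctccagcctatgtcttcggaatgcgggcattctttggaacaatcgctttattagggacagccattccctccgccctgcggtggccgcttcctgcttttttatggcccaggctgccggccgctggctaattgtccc
GATA3 downstream region, chr10:8086451-8086651: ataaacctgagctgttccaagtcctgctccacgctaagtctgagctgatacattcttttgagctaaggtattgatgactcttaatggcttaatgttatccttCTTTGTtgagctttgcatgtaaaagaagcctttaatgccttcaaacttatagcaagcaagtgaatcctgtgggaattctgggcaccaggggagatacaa
CDX2 intron, SOX2, chr13:27966008-27966208: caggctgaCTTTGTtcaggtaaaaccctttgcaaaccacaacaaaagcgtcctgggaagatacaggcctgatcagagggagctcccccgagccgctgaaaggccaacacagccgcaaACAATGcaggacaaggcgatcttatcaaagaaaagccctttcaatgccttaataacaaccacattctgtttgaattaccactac
GATA6 intron, SOX2, chr18:22178479-22178679: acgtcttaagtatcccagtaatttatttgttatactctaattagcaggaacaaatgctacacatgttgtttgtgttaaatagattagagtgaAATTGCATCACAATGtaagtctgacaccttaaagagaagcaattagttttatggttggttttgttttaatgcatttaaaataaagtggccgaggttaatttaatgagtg
GATA6 promoter, SOX17, chr18:22169222-22169422: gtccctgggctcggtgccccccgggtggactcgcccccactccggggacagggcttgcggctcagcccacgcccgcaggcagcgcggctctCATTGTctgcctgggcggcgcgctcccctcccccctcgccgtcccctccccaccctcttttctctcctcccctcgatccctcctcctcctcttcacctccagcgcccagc
FOXA1 promoter, SOX17, chr14:37595397-37595597: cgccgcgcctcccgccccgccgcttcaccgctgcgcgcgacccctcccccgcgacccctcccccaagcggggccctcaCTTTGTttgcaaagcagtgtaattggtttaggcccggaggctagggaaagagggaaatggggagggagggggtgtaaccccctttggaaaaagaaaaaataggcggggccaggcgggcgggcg
LINC00261 promoter beside FOXA2, both lists, chr20:22579189-22579389: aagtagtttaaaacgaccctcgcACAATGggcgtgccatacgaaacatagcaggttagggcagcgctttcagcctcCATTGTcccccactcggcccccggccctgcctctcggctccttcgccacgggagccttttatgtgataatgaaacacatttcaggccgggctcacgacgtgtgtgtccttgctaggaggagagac

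Of the 9 genes, 7 had at least 1 SOX17 peak named for them, where 34.5% of 19443 protein-coding genes did. A SOX2 peak was named for 4 of the 9, where 32.5% of protein-coding genes had one. The same 4 genes, GATA3, GATA6, EOMES and CDX2, were in both lists, beside 21.6% of all protein-coding genes. GATA2, GATA4 and FOXA1 had a named peak in the SOX17 list alone. FOXA2 and HHEX had none in either list, as did 54.5% of protein-coding genes. GATA6 had most peaks, with 4 in the SOX17 list and 3 in the SOX2 list. These counts describe 9 chosen genes and were not tested, because there are no values per library and the genes were chosen with earlier results of these data known.

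**Figure D1:**
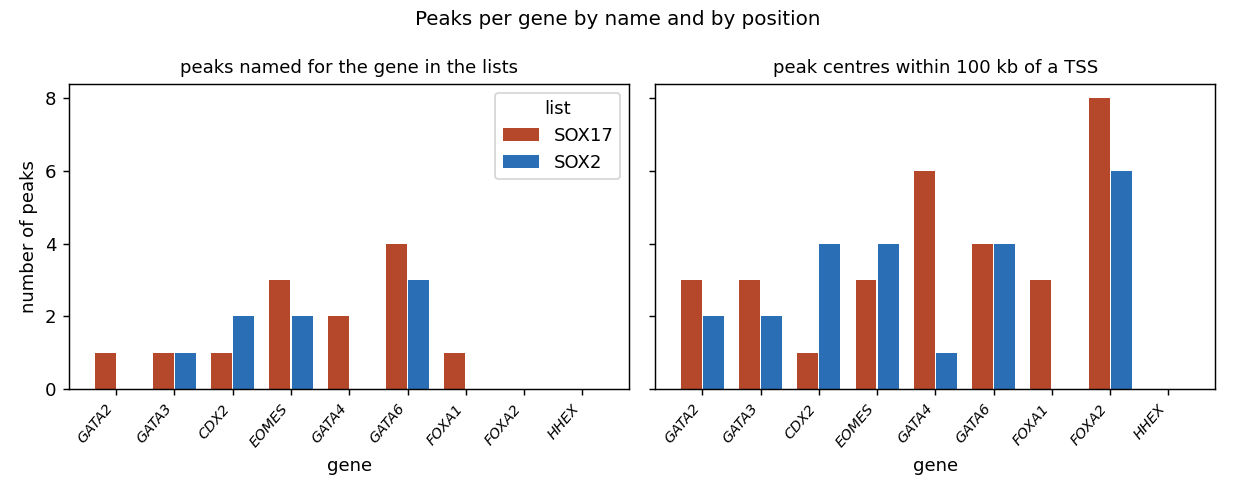
Number of peaks per gene (vertical axis, count) for the 9 genes, SOX17 left and SOX2 right in each panel, by the deposited gene name and by position within 100 kb of a TSS. FOXA2 had 0 named peaks in both lists and 8 SOX17 and 6 SOX2 peaks by position.

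The 13 SOX17 peaks had scores of 14.3 to 87.7 with a median of 27.3, and the whole SOX17 list had scores of 7 to 668 with a median of 26.7. Their median percentile was 51.5, so as a set they sat at the middle of their list. The 8 SOX2 peaks had scores of 20.5 to 241 with a median of 55.4, and the whole SOX2 list had scores of 6.96 to 943 with a median of 24.1. Their median percentile was 81.9, with a range of 41.1 to 99, against 12.3 to 93.6 for the SOX17 peaks. Thus 7 of the 8 SOX2 peaks lay in the upper part of their list, above its median, and 7 of the 13 SOX17 peaks did.

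Most of the named peaks were distal. Of the 13 SOX17 peaks, 10 were annotated as intergenic, 2 as intronic and 1 as a promoter, beside intergenic, intronic and promoter shares of 49.3%, 44% and 3.32% in the whole SOX17 list. Of the 8 SOX2 peaks, 6 were intergenic and 2 intronic, beside shares of 51% and 43.5% in the whole SOX2 list. The deposited distance to the TSS had a median size of 31847 bp for the SOX17 peaks and 20496 bp for the SOX2 peaks, against 36490 bp and 40369 bp in the whole lists. A repeat was annotated at 5 of 13 member peaks for SOX17 (38.5%, 95% Wilson interval 17.7 to 64.5) and at 43.1% of all SOX17 peaks. The same held for 2 of the 8 SOX2 peaks (25%, 7.15 to 59.1) and for 41.4% of all SOX2 peaks. Both intervals include the share of the whole list, and they cover counting of peaks only.

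Among the trophoblast-side genes, EOMES, the T-box factor of trophoblast stem cells and of mesendoderm, had 2 named regions in common between the factors, the most of the 9 genes by name. By position within 100 kb GATA3 and FOXA2 also had 2. The upstream region, at −6003 bp from the TSS by the deposited SOX17 distance and −5992 bp by the SOX2 distance, had a SOX17 score of 40.0 (percentile 71.5) and a SOX2 score of 143.53 (percentile 96.5). The SOX17 peak spanned chr3:27728659-27728777 and the SOX2 peak chr3:27728655-27728760, with 102 bp in common and centres 11 bp apart. The distal region, downstream of the gene at deposited distances of 68435 bp (SOX17) and 68437 bp (SOX2), had a SOX17 score of 65.33 (percentile 87.9) and a SOX2 score of 61.23 (percentile 84.4). It lay in a MER5B DNA transposon, and its centres were 2 bp apart. The pair differed in rank by list, since the distal region was the higher EOMES peak for SOX17 and the upstream region the higher one for SOX2. A further SOX17 peak at chr3:27623350-27623547, at 99267 bp, had a score of 30.33 (percentile 57.6) and no SOX2 counterpart.

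CDX2, the caudal-type homeobox factor that trophectoderm needs, had the highest of the 8 SOX2 peaks. It lay in intron 1 of 2 at chr13:27966037-27966180, 3260 bp inside the gene, with a score of 240.73 (percentile 99) and no overlapping SOX17 peak. The region just upstream of CDX2 was in both lists, at chr13:27971315-27971458 for SOX17 with a score of 27.33 (percentile 51.5) and at chr13:27971338-27971474 for SOX2 with a score of 20.5 (percentile 41.1). The peaks had 121 bp in common. The 2 CDX2 peaks of the SOX2 list thus stood at opposite ends of the members' range. On chromosome 13 the median SOX17 percentile was 28.2, so the upstream SOX17 peak ranked above the median of its own chromosome.

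GATA3, a GATA factor of the trophectoderm lineage, had 1 named region, in both lists, 31847 bp from the TSS for SOX17 and 31850 bp for SOX2 by the deposited distances. The SOX17 peak at chr10:8086488-8086614 had a score of 25.33 (percentile 46.5) and the SOX2 peak at chr10:8086499-8086609 a score of 57.0 (percentile 82.6), with 111 bp in common and centres 3 bp apart. GATA2, a GATA factor of trophoblast and of blood progenitors, had 1 SOX17 peak at chr3:128481729-128481853 in intron 5 of 5, with a score of 20.67 (percentile 33.6). That peak overlapped a GC-rich simple repeat, had a GC content of 65.2% and lay 153 bp from a GENCODE TSS of the gene. No SOX2 peak was named for GATA2.

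Among the endoderm-side genes, GATA6, which starts the primitive endoderm programme, had 7 named peaks and no overlap between the factors. Its SOX17 peaks lay at the promoter at −115 bp (score 26.0, percentile 48.2) and downstream at 90434 bp (45.67, percentile 77), 99895 bp (20.67, percentile 33.6) and 112853 bp (15.33, percentile 15.9). Its SOX2 peaks lay in intron 3 of 6 at 9142 bp (score 26.0, percentile 54.2) and downstream at 46713 bp (53.87, percentile 81.2) and 49125 bp (29.37, percentile 59.8). The closest named pair was the SOX17 promoter peak and the SOX2 intron peak, whose centres were 9257 bp apart. The 3 downstream SOX17 peaks were all farther from the gene than the downstream SOX2 pair. Among all genes, 12 had the same 4 SOX17 peaks, 3 SOX2 peaks and 0 shared regions as GATA6, and SPECC1, CTNNA1 and PREX2 came nearest to it by best percentile, with summed differences of 7.87, 21.4 and 21.7 percentile points over the 2 lists.

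GATA4, the partner of GATA6 in primitive endoderm and heart, had 2 SOX17 peaks and no named SOX2 peak. The higher, at −34266 bp and chr8:11642592-11642714, had a score of 87.67 (percentile 93.6), the highest of the 13 SOX17 peaks. The other lay in intron 2 of 6 at chr8:11716733-11716836 with a score of 43.0 (percentile 74.6). FOXA1, a forkhead pioneer factor of endoderm, had 1 named SOX17 peak at chr14:37584040-37584210, downstream of the gene in a CpG island, with the lowest score of the 13, 14.33 (percentile 12.3).

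Peaks with at least 1 bp in common with the other list, called shared, numbered 4 of 13 for SOX17 (30.8%, 95% Wilson interval 12.7 to 57.6). For SOX2 they numbered 4 of 8 (50%, 21.5 to 78.5). In the whole lists 25.3% of SOX17 peaks and 24.9% of SOX2 peaks were shared, which both intervals include. All 4 shared regions were at EOMES, GATA3 or CDX2. The trophoblast-side genes had 6 SOX17 and 5 SOX2 peaks and the endoderm-side genes 7 SOX17 and 3 SOX2 peaks, with 0 of the 4 shared regions. By position within 100 kb of a TSS, the endoderm-side genes had 4 of 10 shared regions and the trophoblast-side genes 6. On the endoderm side these were 4 of 21 SOX17 peaks and 4 of 11 SOX2 peaks. On the trophoblast side they were 6 of 10 SOX17 peaks and 6 of 12 SOX2 peaks. The split by name also rests on EOMES, which has 2 of the 4 regions and acts in mesendoderm as well. It is a description and was not tested.

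The nearest-gene rule hides peaks that lie close to a member but closer to a neighbour, so peaks were also counted by position, within 100 kb (100000 bp) of any GENCODE TSS of a member. By position 8 of the 9 genes had a SOX17 peak and 7 of 9 a SOX2 peak, beside 75.8% and 73.3% of 20033 protein-coding genes, so having a peak within this distance was common everywhere. There were 31 SOX17 peaks, 12 of them named for a member and 19 for another gene, and 23 SOX2 peaks, 8 named for a member and 15 for another gene. Their median percentiles were 66 for SOX17 and 76.5 for SOX2. Distances in the following paragraphs run from the 5′ end of the gene in GENCODE, with negative values upstream. They can differ from the deposited distances, by up to 30897 bp among the 21 named peaks and by under 1000 bp for 17 of them, because the reference transcripts differ.

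**Figure D2:**
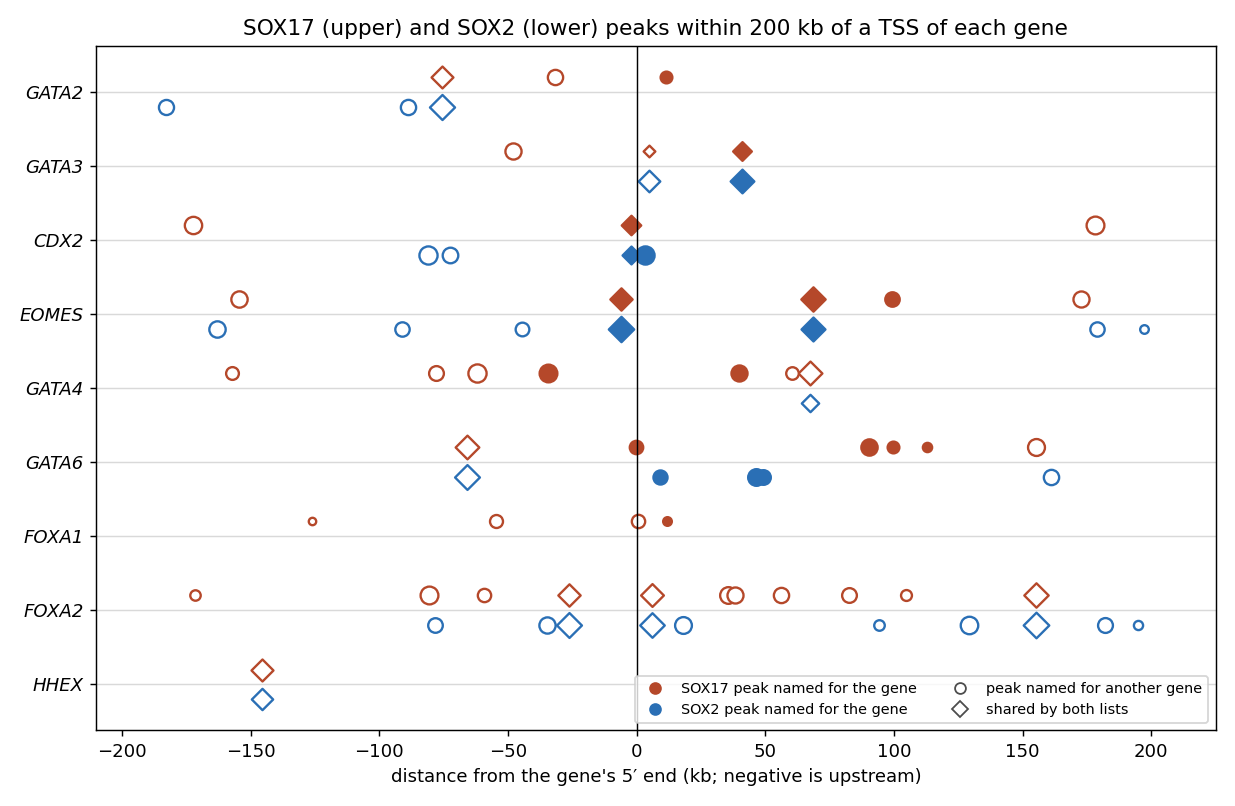
Distance of each SOX17 peak (upper row of each gene) and SOX2 peak (lower row) from the 5′ end of the gene in kb, for peaks within 200 kb of a TSS of the 9 genes; filled marks are named for the gene, open marks for another gene, diamonds are shared, and a larger mark has a higher percentile. FOXA2 had 8 SOX17 and 6 SOX2 peaks within 100 kb, all open, and HHEX had 1 shared region and no other.

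FOXA2, the forkhead factor of definitive endoderm and node, had no named peak but the most peaks of the 9 genes by position, 8 for SOX17 and 6 for SOX2. At least 8 SOX17 peaks were found near 0.524% of protein-coding genes, and at least 6 SOX2 peaks near 2.43%. Within 50 kb (50000 bp) FOXA2 had 4 SOX17 and 4 SOX2 peaks, and GATA4 had as many SOX17 peaks. The share of protein-coding genes with as many peaks was not counted within 50 kb. The shares of 0.524% and 2.43% belong to the wider window and say nothing on these smaller counts. FOXA2 was picked out here after its values were seen. All 14 peaks were named for non-coding neighbours, LINC00261, LINC01384, LINC01747 and LOC284788. LINC00261 is a long non-coding RNA gene beside FOXA2 that is transcribed in endoderm. Its promoter, 6166 bp from the 5′ end of FOXA2 for SOX17 and 6180 bp for SOX2, held a region in both lists, with a SOX17 score of 44 (percentile 75.5) and a SOX2 score of 79.73 (percentile 89.5). The sequence printed above for this region holds 2 SOX sites.

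A second region in both lists lay upstream of FOXA2, at −26363 bp for SOX17 with a score of 40.33 (percentile 71.8) and at −26357 bp for SOX2 with a score of 98.47 (percentile 92.5). The highest SOX17 peak near FOXA2, at −80841 bp, was named for LINC01747 and had a score of 93.67 (percentile 94.5). Of the SOX2 peaks in that list alone, the highest lay in an intron of LINC00261 at 17983 bp, with a score of 57.17 (percentile 82.7). Scores on chromosome 20 ran high in both lists, with a median percentile of 67 for SOX17 and 56 for SOX2 over the chromosome. The SOX17 peaks near FOXA2 had a median percentile of 73 in the whole list and 57.9 within chromosome 20, and the SOX2 peaks 79.6 and 76. The part of the chromosome in these ranks was not tested.

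FOXA1 had 3 SOX17 peaks and 0 SOX2 peaks within 100 kb, and its nearest SOX2 peak lay 298661 bp from a TSS. The SOX17 peak printed above at chr14:37595438-37595557 was annotated to the promoter of a FOXA1 transcript, 248 bp from the nearest FOXA1 TSS, but its nearest gene was given as TTC6. It had a score of 25.67 (percentile 47.3). HHEX, a homeobox factor of anterior endoderm and liver, had no peak of either list within 100 kb. Its nearest region was in both lists, in an intron of IDE, 145529 bp from a TSS for SOX17 and 145508 bp for SOX2. There the SOX17 score was 38.0 (percentile 69.1) and the SOX2 score 32.43 (percentile 64.2).

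GATA4 had 6 SOX17 peaks and 1 SOX2 peak within 100 kb. At least 6 SOX17 peaks were found near 2.32% of protein-coding genes and at least 1 SOX2 peak near 73.3%. These ranks were picked out after they were seen. Chromosome 8, which carries GATA4, held 972 SOX17 and 754 SOX2 peaks, with median percentiles of 59.4 and 43.2. The part of the chromosome in the GATA4 counts and ranks was not tested. For SOX17, GATA6 with 4 peaks was matched or passed by 12.3% of protein-coding genes, GATA2, GATA3, EOMES and FOXA1 with 3 each by 25.8%, and CDX2 with 1 by 75.8%. For SOX2, GATA6, EOMES and CDX2 with 4 peaks each were matched or passed by 11%, and GATA2 and GATA3 with 2 each by 44.1%. The highest SOX17 peak near any of the 9 genes lay upstream of GATA4 at −61923 bp, in chr8:11614977-11615095, and was named for LINC00208, with a score of 195.33 (percentile 99.5). It was the only one of the 31 SOX17 peaks with a compressed SOX-OCT composite, which 2.77% of all SOX17 peaks held. The single SOX2 peak, in intron 2 of GATA4 and named for C8orf49, overlapped a SOX17 peak by 124 bp. Its SOX2 score was 19.43 (percentile 38.2), where the SOX17 score was 55.67 (percentile 83.6).

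GATA6 had 1 region in both lists by position, at −65984 bp on the side of its antisense gene GATA6-AS1, with a SOX17 score of 53.33 (percentile 82.3) and a SOX2 score of 93.83 (percentile 91.9). At GATA2 the only region in both lists lay at −75456 bp and was named for LINC01565, with a SOX17 score of 37.33 (percentile 68.4) and a SOX2 score of 112.07 (percentile 94.1). GATA3 also had such a region within its own span, at the end of the antisense transcript GATA3-AS1 and 4887 bp from its 5′ end, with a SOX17 score of 13.67 (percentile 10.2) and a SOX2 score of 34.2 (percentile 66.4). CDX2 had 3 further SOX2 peaks than SOX17 peaks by position, 4 against 1. The highest, in an intron of FLT3 at −81129 bp, had a SOX2 score of 248.07 (percentile 99.1). FLT3 encodes a receptor tyrosine kinase of blood progenitors.

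**Figure D3:**
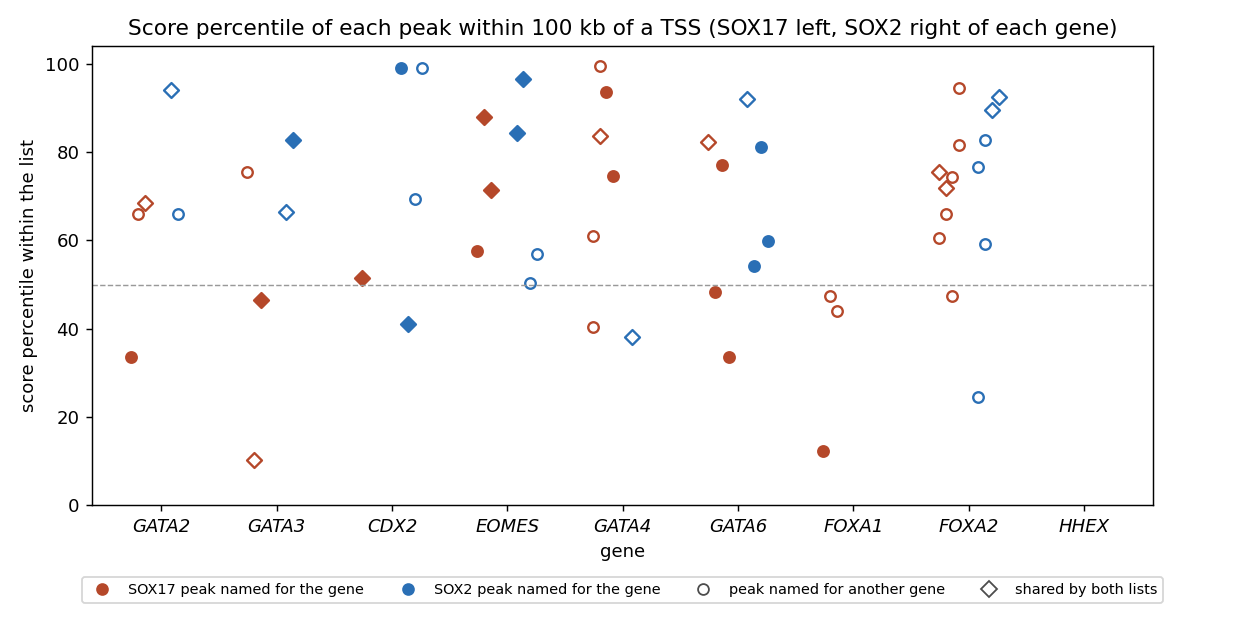
Score percentile within the list (vertical axis) of each peak within 100 kb of a TSS, SOX17 left and SOX2 right of each gene; filled marks are named for the gene, open marks for another gene, diamonds are shared, and small sideways shifts only keep marks apart. The line at 50 is the middle of each list, and the highest points are the SOX17 peak named for LINC00208 near GATA4 (99.5) and the CDX2 and FLT3 peaks of SOX2 (99 and 99.1).

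Across the 10 regions in both lists within 100 kb of a member, the SOX17 percentile was the higher one in 3 (GATA4, CDX2 and the distal EOMES region) and the SOX2 percentile in 7. Among all 4426 shared regions the SOX17 percentile was higher in 2096 and the SOX2 percentile in 2330 (52.6%). The centres of the 10 pairs were 2 to 21 bp apart, and the median over all shared regions was 14 bp. The 10 regions were 32.3% of the 31 peaks for SOX17 (95% Wilson interval 18.6 to 49.9), and for SOX2 they were 43.5% of 23 (25.6 to 63.2). The first interval includes the 25.3% of the whole SOX17 list, and the second lies above the 24.9% of the whole SOX2 list. The peaks of a gene are neighbours and not independent, and the intervals are not a test.

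A SOX site stood within 100 bp of the centre in 8 of 13 member peaks for SOX17 (61.5%, 95% Wilson interval 35.5 to 82.3) and in 67.1% of all SOX17 peaks. It stood in 4 of the 8 SOX2 peaks (50%, 21.5 to 78.5) and in 60.5% of all SOX2 peaks. By position within 100 kb it stood in 24 of 31 SOX17 peaks (77.4%) and 15 of 23 SOX2 peaks (65.2%). Both intervals of the named peaks include the share of the whole list, so no difference is read from these shares. The peaks by position include 12 of the 13 named SOX17 peaks and all 8 named SOX2 peaks. Windows of the same width 2000 bp to either side held it in 24.8% of cases around all SOX17 peaks and in 24.5% around all SOX2 peaks. Around the member peaks such windows held it in 9 of 26 cases for SOX17 (34.6%) and 4 of 16 for SOX2 (25%). Both shared regions just upstream of their gene, at EOMES and at CDX2, held no exact SOX site in either list, and the EOMES one held an OCT site. The GATA3 region held 1 SOX site in both lists. The absence of these letters from a window says nothing on how a factor was held there.

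A canonical SOX-OCT composite, with at most 1 mismatch in the OCT part, was found in 1 of the 8 SOX2 peaks, that of the GATA6 intron, and in 1.66% of all SOX2 peaks. It was found in 0 of the 13 SOX17 peaks and in 0.366% of all SOX17 peaks. The compressed composite was in none of the 21 named peaks, and in 2.77% of all SOX17 and 0.0787% of all SOX2 peaks. GATA sites (AGATAA or AGATAG, and TGATAA or TGATAG) were in 3 of the 13 SOX17 peaks and 3 of the 8 SOX2 peaks. Beside these stood 30.6% and 33.4% of all peaks, and 33.9% and 34.9% of the flanking windows of all peaks. GATA sites were in 9 of 26 flanking windows of the member peaks for SOX17 (34.6%) and 7 of 16 for SOX2 (43.8%). By position within 100 kb they were in 13 of 31 SOX17 peaks (41.9%) and 14 of 23 SOX2 peaks (60.9%). Both intervals of the named peaks include the share of the whole list, and the shares by position were not tested.

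**Figure D4:**
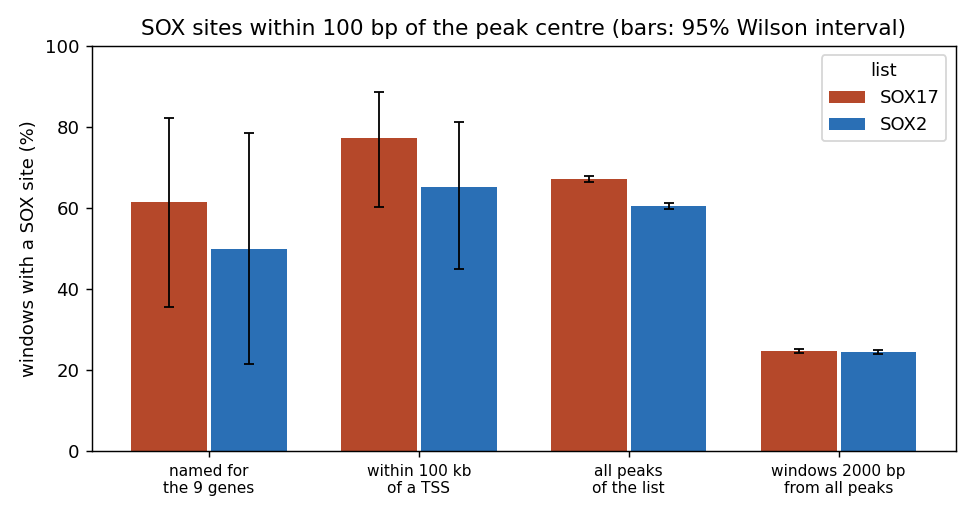
Share of peaks or windows with a SOX site (vertical axis, percent), SOX17 left and SOX2 right, for the named peaks, the peaks within 100 kb, all peaks and the flanking windows; error bars are 95% Wilson intervals. The named peaks stood at 61.5% for SOX17 and 50% for SOX2, and the flanking windows of all peaks at 24.8% and 24.5%.

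Other regulators of these lineages were counted the same way, in lists chosen with earlier results known. The shares of all protein-coding genes to set beside them are those above, 34.5% with a SOX17 peak, 32.5% with a SOX2 peak and 21.6% with both. Of 8 GATA-type and GATA cofactor genes, 1 had a SOX17 peak, 3 a SOX2 peak and 1 both, and 0 had a shared region. TRPS1, a GATA-type repressor, had 7 peaks in each list and no shared region. Its best SOX17 peak (percentile 98.8) lay at −154648 bp and its best SOX2 peak (percentile 54) at 607235 bp by the deposited distances. Of 20 other endoderm and mesendoderm regulators, 10 had a SOX17 peak, 11 a SOX2 peak and 8 both, and 2 had a shared region. The T-box gene TBX3 had 9 peaks in each list, 3 of them shared, with best percentiles of 99.8 for SOX17 and 94.5 for SOX2. Of 11 other trophoblast regulators, 9 had a SOX17 peak, 9 a SOX2 peak and 8 both, and 5 had a shared region. The share of all protein-coding genes with a shared region was not counted. The difference between the lists in shared regions was not tested. Among them TFAP2C, an AP-2 factor of trophoblast and germ cells, had 5 SOX17 and 6 SOX2 peaks, with best percentiles of 98.4 and 96.5. TEAD4, a TEA-domain factor required for trophectoderm, had 1 SOX17 and 2 SOX2 peaks, 1 of them shared.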

How the data were processed

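ChIP-seq libraries of SOX17 in TCam-2, of SOX2 in 2102EP and of the 2% input of each line, 3 of each, were grouped by their titles. The design text gives single-end sequencing (75 bp), mapping in CLC Genomics Workbench 12 to hg38, and analysis in HOMER. The HOMER version, the calling settings and any use of input are not stated in the sources used. The authors deposited 1 merged peak list per factor, with a score of unstated scale per peak, positions and distances in bp on hg38, nearest gene and annotation, per the file headers. 2 lines of each list were empty. A comparison of ChIP with input was not possible, as the lists hold no values per library.

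All 9 genes were named with every peak. From each further gene list up to 4 genes could be named, by the highest percentile. The counts by position of FOXA2 and GATA4, the peaks named for LINC00208 and FLT3 and the IDE region were singled out after their values were seen. The genes, gene lists and motifs were chosen with earlier results of these data known, so no test was run. Positions were compared with GENCODE 44. Both strands of the hg38 sequence were searched for motifs up to 100 bp from each centre and in windows 2000 bp to either side. Intervals are 95% Wilson intervals over peaks and cover counting error only. The steps used python 3.11.15, pandas 2.3.3, numpy 2.4.6, scipy 1.17.1, pysam 0.24.0 and matplotlib 3.10.9. The overlap and motif steps were tested on simulated data.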

Additional observations from a re-analysis of the deposited data

How the results depend on the processing

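Of 46 alternatives, 30 left the value within the limit used for no change (1.5 times for a count) and 16 moved it. The 30 include every alternative for a median percentile. For the 8 SOX2 member peaks and the peaks near FOXA2, the limit for the median ran from the lowest peak to the highest. The median of a subset of the same peaks cannot leave that range. Peaks added by position and ranks within the chromosome could leave it, but the limit is wide. No conclusion is drawn from these medians. Among them, 81.9 for the SOX2 member peaks became 70.5 outside repeats. For SOX17 near FOXA2, 73 became 57.9 when ranked within the chromosome. Position within 100000 bp of a TSS in place of the nearest gene gave 31 SOX17 and 23 SOX2 peaks (13 and 8 by name), 7 genes with a SOX2 peak and 7 with both (4 and 4), and 10 shared regions (4). Scores above the list's median left 4 genes and 7 peaks for SOX17, peaks within 50000 bp of the TSS left 8 SOX17 peaks, and peaks outside repeats left 8 SOX17 peaks and 2 shared regions. With 1 mismatch allowed, all 13 SOX17 and all 8 SOX2 peaks held a SOX site, as did 99.8% of all peaks in each list. Windows of 50000 and 200000 bp were chosen after seeing the data: at 50000 bp there were 18 SOX17 and 14 SOX2 peaks near the genes and 4 SOX17 peaks near FOXA2, and at 200000 bp there were 10 SOX2 peaks near FOXA2. An overlap of at least 50% or centres within 1000 bp left the 4 shared regions at 4.

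No paired analysis was possible because the lists hold no columns per library, and no replicate was left out for that reason. Depth is unknown.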

Other observations

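Among further genes of the lineage lists, OTX2, a homeobox factor of anterior endoderm and epiblast, had 1 SOX17 peak and 2 SOX2 peaks, 1 of them shared, with best percentiles of 92.5 for SOX17 and 99.8 for SOX2. GSC, a homeobox factor of the organizer, had 1 SOX17 peak at percentile 89.7 and no named SOX2 peak. MSX2, a homeobox factor of trophoblast, had 2 peaks in each list, 1 shared, with best percentiles of 96.2 for SOX17 and 75.7 for SOX2. PPARG, a nuclear receptor of the placenta, had 3 SOX17 peaks and 1 SOX2 peak, with best percentiles of 94 and 31.5.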
